A study of Mus musculus with 2 samples.

Results

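Long intergenic noncoding RNAs (lincRNAs) are transcribed from DNA between protein-coding genes, and their exons are usually read from 1 of the 2 DNA strands. A transcript of the opposite strand is an antisense RNA, which can have its own promoter and can be made alone or together with its partner. Strand-specific probes, 1 for each strand of an exon, therefore tell which strand of a region gives RNA. The regions described here are lincRNA exons of the mouse for which 1 strand, and not the other, gave a signal in control liver.

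The study set liver of control mice against liver exposed to ischemia/reperfusion (I/R), with 1 array for each. All animals were male, and the methods describe C57BL/6J mice of 10 to 12 weeks. The blood supply of 70% of the liver was interrupted for 1 h, and tissue was taken after 6 h of reperfusion. RNA of 3 livers was mixed for the I/R array, while the sources used here do not say whether the control RNA was also a mix. rRNA was removed and the RNA was amplified with random primers along its length, so that the signal does not depend on a poly(A) tail. With 1 array in each group there was no replicate, no test and no p-value, and array and condition cannot be told apart. The values were tissue-wide, so that fewer cells of a type and less RNA per cell cannot be told apart either. Markers of hepatocytes and of other liver cells could not be read, because the named probes of the array match none of them.

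The array carried 3457 lincRNA exon probes, whose names end in + or -, and these formed 1728 regions with a probe for each strand. The sources used here do not say whether the sign names the strand of the transcript or of the probe, and the name holds a running number and no coordinate. A region was selected when exactly 1 of its 2 probes was well above background on the control array. Well above background is the flag of the image software for a signal that is significantly above the local background and exceeds it by a set multiple of the noise; a probe with this flag is called detected in the following. The rule chose 774 regions, 44.8% of the 1728, while both strands were detected in 713 and neither strand in 241. The detected strand, called the expressed strand here, was + in 350 regions and - in 424. Since the flags of the control array chose the regions, the difference between the strands in control liver is a description and no result.

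On the control array the processed signal of the expressed strand ranged from 12.7 to 41014, with a median of 69.1 and quartiles of 30.5 and 190. The other strand ranged from 2.53 to 12.6, with a median of 3.57, and 344 of these probes stood at the lowest value of the array, 2.53. The limit between the strands was narrow at its edge. The dimmest expressed strands were MM9LINCRNAEXON10710+ at 12.69 and MM9LINCRNAEXON10964- at 12.73, whereas the brightest strands counted as the other strand were MM9LINCRNAEXON11120- at 12.59 and MM9LINCRNAEXON10480+ at 12.58. Just outside the rule lay MM9LINCRNAEXON10657 and MM9LINCRNAEXON10176, whose dimmer strands were detected at 12.7, and MM9LINCRNAEXON11751 and MM9LINCRNAEXON10677, whose brighter strands at 12.6 and 12.5 were not. By a weaker flag, positive and significant against the background, 429 of the other strands also carried some signal in control liver.

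After I/R most regions kept the strand pattern of control liver. In 627 of the 774 regions (81.0%) the same strand was detected alone, in 35 (4.52%) both strands were detected, in 105 (13.6%) neither, and in 7 (0.904%) the other strand alone. The expressed strand was thus still detected in 662 regions and not in 112 (14.5%), compared with 10.3% of all 41464 features detected on the control array. The other strand was detected after I/R in 42 regions (5.43%), and 6.27% of all 18228 features without detection on the control array were detected on the I/R array. The share of losses lay above that of the whole array and the share of appearances slightly below it; neither difference was tested.

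The level of the expressed strand was followed in 773 regions after quantile normalization of the arrays. Signals are given as the scanner software wrote them, and all folds and bounds are ratios of the normalized signals, which differ slightly from ratios of the signals quoted. In MM9LINCRNAEXON11284 the + spot read 118275 on the control array and 14.0 on the I/R array, the software marked the control spot as an outlier in its pixels, and the region was given no fold. A strand is said to have risen at a fold of 1.5 or more, I/R over control, and to have fallen at 0.7 or less, the thresholds of the study. The study applied them to lncRNAs flagged Present or Marginal in both samples. That filter was not used here, so the calls are not those of the study. A strand that was no longer detected has only a bound for its fall, and where this bound did not reach 0.7 its change is called not resolved. By these rules 515 expressed strands (66.6%) held their level, 69 (8.93%) rose, 93 (12.0%) fell and 96 (12.4%) were not resolved. The calls depended on the starting signal. No strand was counted lower than the limit of the I/R array, so the dimmest could rise but not fall. Under 16 on the control array, 18.0% rose and 0 fell. From 16 to 32, 15.0% rose and 5.88% fell. From 32 to 64, 9.70% rose and 18.8% fell. At 128 or more, 3.91% rose and 11.3% fell. Of all features, 18.3% rose under 16 and 7.60% at 128 or more. Among all features detected on the control array 10.1% rose and 12.8% fell, shares near those of the lincRNA exon strands in both directions. The balance of rises and falls depended on the normalization: with cyclic loess 92 of the strands (11.9%) rose and 60 (7.76%) fell, and 12.4% and 9.75% of all features did.

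**Figure D1:**
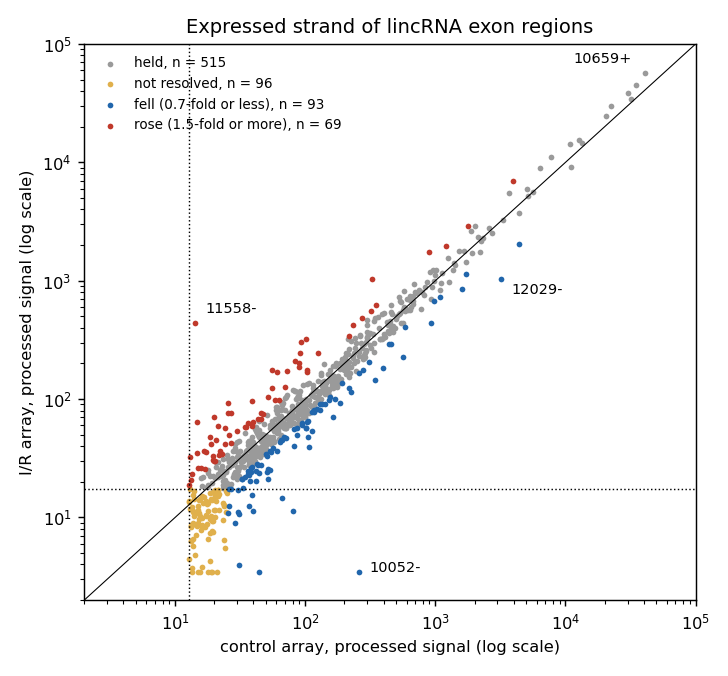
Processed signal of the expressed strand on the control array (x axis) and the I/R array (y axis), both on log scales, for 773 lincRNA exon regions; the solid line marks equal signal and the dotted lines the lowest signal detected on each array (12.7 and 17.3). Most points follow the line over the whole range, the 96 strands that were not resolved lie at the lower left below the dotted line of the I/R array, and MM9LINCRNAEXON11558- and MM9LINCRNAEXON10052- lie farthest from the line.

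The shift of the expressed strands as a group was small. The median log2 fold was -0.14 over the 773 strands, or -0.07 with undetected strands placed at their bound, and -0.10 over all features detected on the control array. Among the 662 strands detected on both arrays the median was -0.07, the middle 50% of strands lay between -0.32 and 0.25, and the lowest and highest 10% began at -0.54 and 0.61. For all features detected on both arrays the median was -0.06, and the corresponding limits were -0.31 and 0.26, and -0.58 and 0.64. Across the 662 strands the log2 signals of both arrays had a Pearson correlation of 0.964, a description over regions of the same 2 libraries. The software's own error of a spot gave a median 95% interval of ± 0.44 on the log2 scale for the fold of a single strand, ± 0.79 for strands under 32 on the control array and ± 0.40 for those at 128 or more. This interval covers the measurement of the spot and leaves out all variation between animals. It lay above 1 for 64 of the 69 strands that rose and below 1 for 70 of the 78 that fell and were still detected.

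Most strands of either sign held. Of the 349 regions with an expressed + strand and a value, 235 held, 24 rose (6.88%) and 43 fell (12.3%). Of the 424 with an expressed - strand, 280 held, 45 rose (10.6%) and 50 fell (11.8%). The median log2 fold was -0.19 for + strands and -0.10 for - strands, and the expressed strand was lost in 15.2% and 13.7%. None of these differences was tested.

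The brightest strands of the set held. MM9LINCRNAEXON10659+ had a signal of 41014 on the control array and 57095 on the I/R array, a fold of 1.43 (95% measurement interval 1.08 to 1.88). MM9LINCRNAEXON10210+ read 34570 and 44805, a fold of 1.31. MM9LINCRNAEXON12079+ read 31662 and 34417, a fold of 1.10. These 3 strands were far above the median signal of the set, 69.1, and their folds stayed under the threshold for a rise. MM9LINCRNAEXON11220+ read 30473 and 38430 (fold 1.27), and MM9LINCRNAEXON10444+ read 22341 and 30192 (fold 1.37). On none of these 5 regions was the other strand detected on either array; beside MM9LINCRNAEXON10659+, for example, MM9LINCRNAEXON10659- read 6.40 and 3.44. In all, 10 expressed strands had 10000 or more on the control array, 9 of them read higher after I/R, with a median fold of 1.25 and a range from 0.822 to 1.43, and none of the 10 passed a threshold. All 2499 features of the array at that level had a median fold of 0.962.

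At 1000 or more on the control array there were 47 expressed strands, of which 39 held, 3 rose and 5 fell. Those that rose were MM9LINCRNAEXON10575+ with 3931 and 6947 (fold 1.74), MM9LINCRNAEXON10326- with 1775 and 2924 (fold 1.60) and MM9LINCRNAEXON11862- with 1205 and 1967 (fold 1.59). The 5 that fell included MM9LINCRNAEXON12029-, the largest fall among strands detected on both arrays. These were 6.38% and 10.6% of the 47, and of all 7900 features at that level 6.2% rose and 11.8% fell. These strands were named after their values were seen.

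The 6 largest falls among strands detected on both arrays were moderate. MM9LINCRNAEXON12029- went from 3222 on the control array to 1032 on the I/R array, a 3.20-fold fall (measurement interval 2.43 to 4.23). MM9LINCRNAEXON10811- went from 107 to 39.1, a 2.73-fold fall (1.96 to 3.80). MM9LINCRNAEXON10569- went from 562 to 226, a 2.54-fold fall (1.92 to 3.36). The opposite strand was not detected on either array in these 3 regions, nor in the 3 that follow. MM9LINCRNAEXON10981- went from 342 to 144 (2.43-fold), MM9LINCRNAEXON10866+ from 51.7 to 21.3 (2.40-fold) and MM9LINCRNAEXON11076+ from 162 to 70.8 (2.30-fold). With normexp MM9LINCRNAEXON10866+ had a fold of 0.737 and no longer counted as fallen. In all, 15 strands (1.94%) fell to 0.5 or less while they remained detected, as did 2.08% of all features detected on the control array, and MM9LINCRNAEXON10619-, named after its value was seen, was the brightest of them, with 4367 on the control array and 2056 on the I/R array (2.19-fold).

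The largest rises started mostly from dim signals, where a fall can seldom be called. MM9LINCRNAEXON11558-, 1 of the 2 members that the study lists as changed, went from 14.3 to 441, a 30.8-fold rise (measurement interval 19.8 to 48.1), while its + strand read 2.53 and 6.13. MM9LINCRNAEXON12113-, the other listed member, went from 14.7 to 64.2, a 4.44-fold rise (2.84 to 6.96). Both control signals lie just over the lowest detected signal of that array, 12.7. MM9LINCRNAEXON10846- went from 25.3 to 93.1 (3.73-fold) and MM9LINCRNAEXON11919+ from 19.8 to 70.7 (3.62-fold). MM9LINCRNAEXON11883- went from 93.5 to 306, a 3.26-fold rise (2.45 to 4.32), and MM9LINCRNAEXON11479- from 101 to 324, a 3.19-fold rise (2.41 to 4.23). In none of these 6 regions was the other strand detected after I/R. In all, 28 expressed strands (3.62%) rose at least 2-fold and 9 (1.16%) at least 3-fold, and of all features detected on the control array 4.23% and 1.61% did. With normexp background correction and an offset of 50, the rise of MM9LINCRNAEXON11558- was 7.21-fold and that of MM9LINCRNAEXON12113- 1.52-fold, and the folds of the other 4 lay between 1.55 and 2.41.

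Several of these rises had a counterpart on the glass. A spot is surrounded by up to 18 other spots, which carry probes of other transcripts. A surrounding spot is said to have moved alike when it changed in the same direction and by at least 0.5 times as much. The lower of its signals on the 2 arrays also had to be at most 0.25 times the change of the central spot. Of the 18 spots around MM9LINCRNAEXON11558-, 3 moved alike. They were MM9LINCRNAEXON11939+, directly adjacent, with 2.53 on the control array and 422 on the I/R array, ASMM9PARTA017217 with 8.76 and 449, and ASMM9PARTA001305 with 10.7 and 242. These probes beside the strand, all for other transcripts, rose by 232 to 440, and the strand itself by 427. At least 1 surrounding spot moved alike for MM9LINCRNAEXON12113-, MM9LINCRNAEXON10846-, MM9LINCRNAEXON11919+ and MM9LINCRNAEXON11479- as well, and none did for MM9LINCRNAEXON11883-. Around MM9LINCRNAEXON11883-, 2 spots moved the opposite way, ASMM9PARTA020147 from 672 and ASMM9PARTA000805 from 428, both to 3.44. Over the whole set such a spot lay beside 12 of the 69 strands that rose (17.4%), 6 of the 9 that rose at least 3-fold, 16 of the 515 that held (3.11%) and 7 of the 93 that fell (7.53%), and beside 3.83% of all spots. A spot that moved by the same rule in the opposite direction lay beside 2 of the strands that rose, 11 of the 93 that fell (11.8%) and 2.31% of all spots. Because the rule is scaled by the change of the central spot, a spot that changed little can seldom have such a neighbour. The shares for strands that held and for all spots are thus partly set by the rule. They are no baseline for the strands that rose. The part of the surrounding spots in these rises was not tested.

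Without the strands beside such spots, 19 strands that rose at least 2-fold remained. They read between 13.0 and 326 on the control array, and the largest rise among them was the 3.26-fold rise of MM9LINCRNAEXON11883-. MM9LINCRNAEXON11224- went from 55.9 to 177 (3.18-fold; 2.37 to 4.26) and MM9LINCRNAEXON11065- from 326 to 1042 (3.13-fold; 2.37 to 4.13), both named after their values were seen. Of the 735 strands left without such a neighbour, 57 rose and 86 fell, and in the whole array 9.42% of such features rose and 12.3% fell. Leaving them out took the rises from 69 to 57 in the set and from 4186 to 3730 over the whole array. The falls went from 93 to 86 and from 5323 to 4856. None of the 6 largest falls had a surrounding spot that moved alike, although 1 moved the opposite way beside each of MM9LINCRNAEXON10981- and MM9LINCRNAEXON11076+. Among the 15 strands that fell to 0.5 or less, 1 had a spot that moved alike. A spot that fell with the strand but kept more signal than the rule allows is not counted. Beside MM9LINCRNAEXON10866+, ASMM9PARTA024382 fell from 35.8 to 12.1 and ASMM9PARTA018501 from 39.5 to 18.2, and neither counted. Around this strand ASMM9PARTA014179 and ASMM9PARTA042289 rose, ASMM9PARTA005240 stood at the lowest value of each array, and the other spots fell. The rule thus cannot tell whether these falls had a counterpart on the glass.

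**Figure D2:**
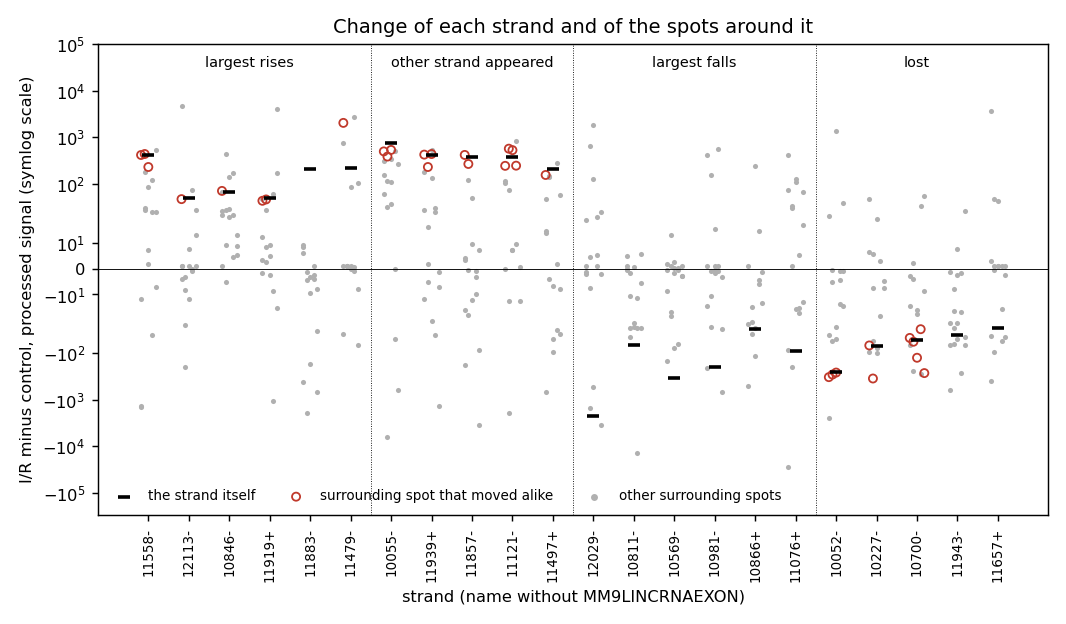
Change in processed signal, I/R minus control, of the named strands (black bars) and of the spots around each on the array (points) on a symlog axis that is linear between -20 and 20. Open circles mark surrounding spots that moved alike. They are present for 5 of the 6 largest rises, all 5 strands that appeared and 3 of the 5 lost strands. None of the 6 largest falls has one, but a spot that fell and kept more signal than the rule allows is not marked.

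The numbers of the probes gave little further order. The 3 members numbered MM9LINCRNAEXON11065, MM9LINCRNAEXON11066 and MM9LINCRNAEXON11067 all had an expressed - strand, with folds of 3.13, 2.37 and 1.48, and they were picked out after their values were seen. Among the 125 pairs of members with consecutive numbers, the same expressed strand and detection on both arrays, both strands rose in 2 pairs and both fell in 0, and the log2 folds had a Pearson correlation of 0.08, a description over regions of 1 pair of arrays. At a distance of 100 numbers it was 0.14 over 86 pairs. Consecutive members had the same expressed strand in 53.6% of 317 pairs, and the shares of + and - alone give 50.5%. Whether consecutive numbers lie next to each other in the genome is not given in the sources used here.

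Loss of the expressed strand went with a low starting signal. Of the 50 strands under 16 on the control array 80.0% were no longer detected after I/R, of the 153 between 16 and 32 41.8%, and of the 165 between 32 and 64 2.42%. For strands of 64 to 128 the share was 1.34%, and for those of 128 or more it was 0.391%. Over all features of the same starting signal the shares were 71.2%, 35.3%, 3.09%, 0.652% and 0.240%. The lowest signal detected was 12.7 on the control array and 17.3 on the I/R array, so that detection asked for more signal after I/R. On the normalized scale 68 members lay under the limit of the I/R array already in control liver, and these included 52 of the 111 lost strands with a value. At or above that limit, 59 of 705 were lost. A lost strand is therefore not the same as a silent one, and for 96 of the 111 the bound did not reach 0.7.

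**Figure D3:**
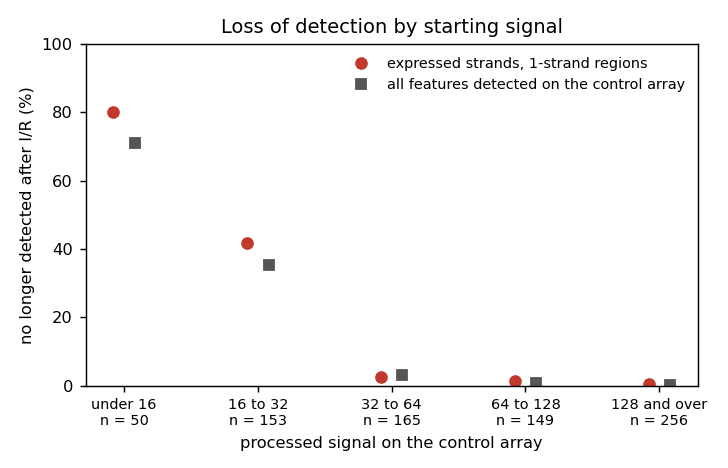
Share of strands detected on the control array that were not detected on the I/R array (y axis, percent), by processed signal on the control array (x axis), for the expressed strands of 1-strand regions (circles) and all features (squares). The share falls from 80.0% under 16 to 0.391% at 128 and over, and both series follow the same course.

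The 5 strongest losses were read against these limits. MM9LINCRNAEXON10052- went from 261 to 3.44, the lowest value of the I/R array, and was at least 15.0-fold lower. It was the only lost strand over 128 on the control array among the 111 with a value; MM9LINCRNAEXON11284+, given above, has none. MM9LINCRNAEXON10227- went from 80.8 to 11.4 (at least 4.60-fold lower) and MM9LINCRNAEXON10700- from 66.8 to 14.7 (at least 3.80-fold lower). Around MM9LINCRNAEXON10052- 3 spots moved alike, among them a probe named as a negative sequence, MM9NEGATIVE002, with 331 on the control array and 3.44 on the I/R array. For MM9LINCRNAEXON10227- and MM9LINCRNAEXON10700- such spots numbered 2 and 5. MM9LINCRNAEXON11943-, from 44.2 to 3.44 (at least 2.52-fold lower), and MM9LINCRNAEXON11657+, from 39.8 to 11.3 (at least 2.27-fold lower), had none. The part of the surrounding spots in these losses was not tested.

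The other strand appeared in 42 regions, in most of them faintly. Its I/R signal ranged from 17.6 to 777 with a median of 23.7, so that 28 of the 42 lay under 30 and 7 at 100 or more. Against the control array 36 were at least 1.5-fold higher and 8 at least 4-fold higher. The same counts over all newly detected features are not given here, so these are not read as particular to the regions. The 2 detection limits set part of these bounds in advance. An undetected control value counted as at least 12.5 and a detected I/R value was at least 17.5, both on the normalized scale. Beside a newly detected strand the expressed strand rose in 3 regions, held in 29, fell in 3 and was not resolved in 7. The other strand thus appeared in 4.35% of regions whose expressed strand rose, 5.63% of those where it held, 3.23% of those where it fell and 7.29% of those not resolved, differences of a few regions that were not tested.

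Of the 5 largest appearances 4 came beside expressed strands that held. MM9LINCRNAEXON11939+ went from 2.53 to 422, at least 33.2-fold higher, while the expressed MM9LINCRNAEXON11939- read 5613 and 5593 (fold 0.973). MM9LINCRNAEXON11857- went from 12.3 to 389 (at least 30.7-fold higher) with its + strand at 41.6 and 53.2. MM9LINCRNAEXON11121- went from 6.42 to 385 (at least 30.4-fold higher) with its + strand at 45.3 and 32.9. In all 3 the expressed strand stayed within the thresholds. MM9LINCRNAEXON11497+ went from 2.53 to 215 (at least 17.1-fold higher) with its - strand at 124 and 97.1. The largest of all, MM9LINCRNAEXON10055-, went from 11.7 to 777 (at least 61.2-fold higher), and its + strand read 13.0 and 17.2 and was no longer detected.

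Each of these 5 had at least 1 surrounding spot that moved alike, 3 in the case of MM9LINCRNAEXON10055- and 4 in that of MM9LINCRNAEXON11121-. MM9LINCRNAEXON11939+ is the spot adjacent to MM9LINCRNAEXON11558-, so that the largest rise and the second largest appearance of the set lie side by side on the array. Such a spot lay beside 15 of the 42 strands that appeared (35.7%) and beside 6 of the 7 with an I/R signal of 100 or more. The exception, MM9LINCRNAEXON10453+, went from 2.53 to 181 (at least 14.4-fold higher) with MM9LINCRNAEXON10453- at 30.5 and 33.7. On the whole array, 98 spots were dark on the control array and at 100 or more on the I/R array, and 65 of them (66.3%) had such a neighbour. With features beside such spots left out, 27 of the 42 other strands that appeared remained. Over the whole array 780 of the 1143 features that appeared remained, a share of 4.38% of the features without detection on the control array and without such a neighbour. Among the 27, MM9LINCRNAEXON11066+ went from 4.02 to 63.1 (at least 5.07-fold higher), and its expressed - strand also rose, from 72.5 to 173 (2.37-fold). The part of the surrounding spots in the appearances was not tested.

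**Figure D4:**
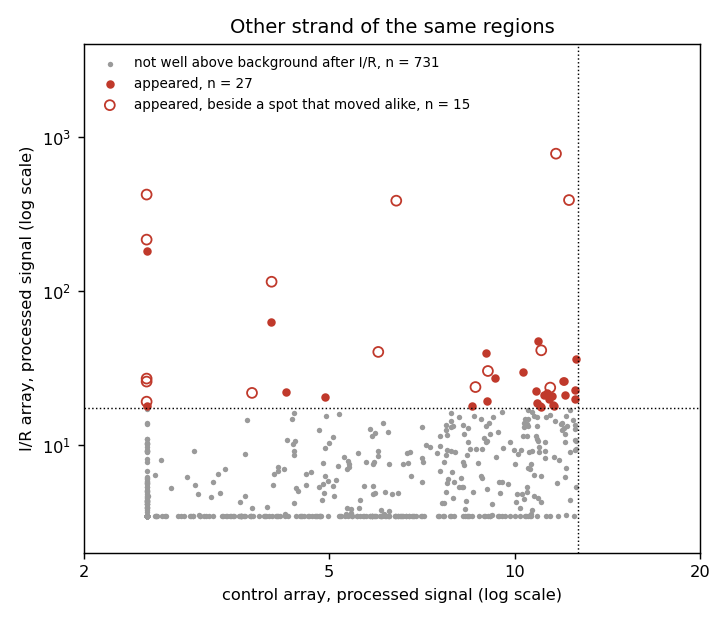
Processed signal of the other strand on the control array (x axis) and the I/R array (y axis), both on log scales, for 773 regions; the dotted lines mark the lowest signal detected on each array. Of the 42 strands that appeared, 15 lie beside a spot that moved alike (open circles), including 6 of the 7 at 100 or more, and most of the other 27 lie just over the line.

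In 7 regions (0.904%) the detected strand changed over from control to I/R. In MM9LINCRNAEXON10135 the - strand read 13.8 and 11.3, and the + strand 12.6 and 36.1, at least 2.90-fold higher. In MM9LINCRNAEXON12123 the - strand read 19.4 and 7.57, and the + strand 10.3 and 29.9, at least 2.41-fold higher. In MM9LINCRNAEXON11338 the - strand read 20.1 and 11.6, and the + strand 2.53 and 25.8, at least 2.08-fold higher, with 7 surrounding spots that moved alike. In MM9LINCRNAEXON11232 the + strand read 21.9 and 11.5, and the - strand 11.0 and 18.0, at least 1.46-fold higher. MM9LINCRNAEXON10055 was described above, and MM9LINCRNAEXON11562 and MM9LINCRNAEXON11976 had smaller rises. In all 7 the strand that was no longer detected began under 22 on the control array and its change was not resolved. In MM9LINCRNAEXON10055 this strand read higher on the I/R array, 13.0 and 17.2, but under that array's limit of 17.3. Thus no region exchanged 1 clearly expressed strand for the other. When a single detection level was set for both arrays, chosen after the data were seen, 3 regions changed over.

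The other exon strands of the array behaved much alike. Of the 1426 strands in regions where both were detected on the control array, 9.12% rose, 12.2% fell and 13.4% were lost, with a median log2 fold of -0.12. Of the 482 strands in regions where neither was detected, 28 (5.81%) appeared. The probes for human lincRNA loci gave 287 regions with 1 detected strand, of which 3.83% rose, 14.6% fell and 19.9% were lost, and the other strand appeared in 6 (2.09%). Mouse lincRNA loci gave 173 such regions, with 20.2% lost and the other strand in 7 (4.05%). Ultraconserved regions gave 225, with 20.9% lost and the other strand in 7 (3.11%). The detected strand changed over in 2 of the 287, 3 of the 173 and 0 of the 225 regions, compared with 7 lincRNA exon regions (0.904%). These families started from lower median signals, 46.5, 62.0 and 49.2 on the control array compared with 69.1 for the lincRNA exons, and the differences between families were not tested.

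**Figure D5:**
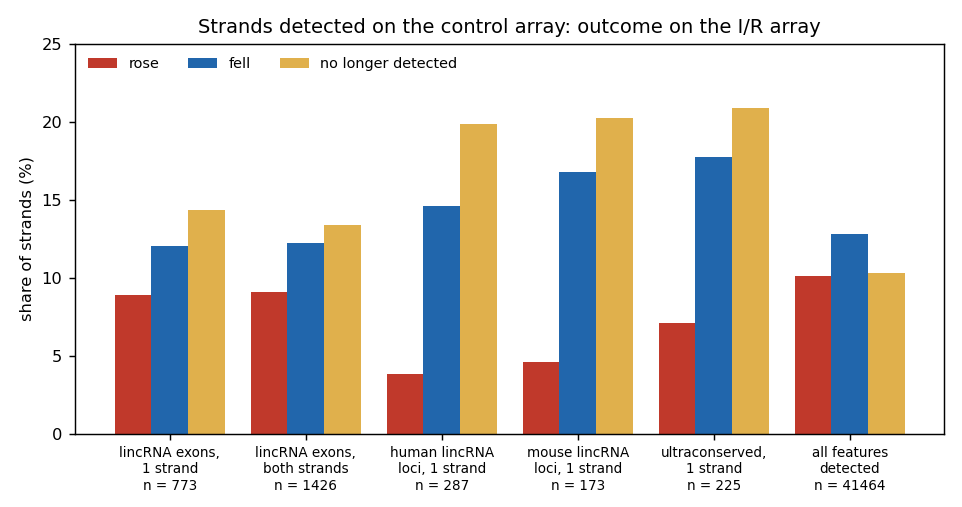
Share of strands detected on the control array (y axis, percent) that rose, fell or were no longer detected on the I/R array, for lincRNA exons with 1 or both strands detected, 3 other families with 1 strand detected, and all features; a lost strand with a bound of 0.7 or less also counts as fallen. The lincRNA exons with 1 strand, at 8.93%, 12.0% and 14.4%, lie next to those with both strands, and the 3 other families show more losses.

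The same flag can be read on the probes whose names mark them as negative sequences. The array has 20 of these in 1200 spots, and 22.7% of these spots were detected on the control array, 6 of the 20 sequences in over 50% of their spots. Of the 272 detected spots 130 (47.8%) were not detected on the I/R array, and 29 of the other 928 (3.13%) appeared. Detection thus also occurred on probes named as negative sequences, and the share of lincRNA exon strands that owe their detection to it was not tested.

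The choice of the control array for the rule matters for its mirror image. When the regions were selected on the I/R array instead, 813 had exactly 1 detected strand. The same strand was not detected on the control array in 33 (4.06%), and the other strand was detected there in 160 (19.7%), compared with 14.5% and 5.43% in the direction described above. The I/R array had fewer detected spots, 38819 compared with 42038 of 61194, and its limit was higher. Over all features, 4253 were detected on the control array alone and 1143 on the I/R array alone. The same imbalance was thus seen in the whole array and was not particular to these regions. Each share differed with the array used to select, and array and condition cannot be told apart.

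The probes of both strands are different sequences, so that the ratio of their signals is no ratio of RNA amounts, but it can be followed from array to array. With undetected strands set at the limit of their array, the median log2 difference between the strands was at least 2.46 on the control array and at least 1.89 on the I/R array, that is, 5.52-fold and 3.72-fold. The flags that chose the regions set the value on the control array. With a single detection level for both arrays, chosen after the data were seen, the differences were 2.19 and 2.11.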

How the data were processed

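RNA of control and I/R mouse liver was hybridised to 1 single-colour (Cy3) long noncoding RNA array each, both on 1 slide. The authors deposited the scanner output of each array, made with Agilent Feature Extraction 11.0.1.1; its values are processed signal intensity, background-subtracted by the software, with a detection flag for each spot. The design of the array was annotated on mouse build mm9. The deposited table of the series holds the same intensity values (100% of spots equal), so the quantile normalization that the methods name is not in the deposited values and was done here. Neither array had a saturated spot.

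From 62513 spots the controls were left out, which kept 61194. Negative sequences and spots marked as outliers were left out, repeated spots were averaged, and log2 intensity of 59692 features was quantile normalized in limma 3.58.1 (R 4.3.3); the rest was computed in Python 3.11.15. A strand not detected on 1 array was set at the higher of the array's lowest detected signal (normalized 12.5 and 17.5) and its own value, which gives a bound. The 95% measurement interval is 1.96 times the error that the software gives for the spots. A spot counts as surrounding within 25 pixels. The steps were tested on simulated data with large rises and falls planted in strands well above the detection limit, and with a planted group of rising spots. Losses, changes of dim strands and groups of falling spots were not planted.

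With 1 array in a group no test across samples was possible, and folds of 1.5 and 0.7 took its place. Named were members that the study lists, the 6 largest rises and falls, the 5 brightest, the 5 losses and the 5 appearances with the largest bounds, up to 5 regions that changed over, and the 2 members nearest to each side of the detection limit. Other names are marked in the text as chosen after their values were seen. The regions, the comparison families and the lists were chosen with earlier results of these data known. The class of strands not resolved, the rule for surrounding spots (after several distances had been looked at), the common detection level, the signal ranges and the comparison of probe numbers were added after the data were seen. Marker lists of 10 kinds could not be used beyond the reference genes. No probe sequence or coordinate of the exons was used here.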

Additional observations from a re-analysis of the deposited data

How the results depend on the processing

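No paired analysis was possible because there was 1 array per condition, and no array could be left out. The counts at the detection limit moved with the flag and with the array used to select. With the positive and significant flag 469 regions had 1 detected strand, of which 271 held, 12 were not resolved, 41 were lost and 81 gained the other strand, with strand differences of 3.62 and 3.01 (log2, control and I/R). Selection on the I/R array, with folds then read as control over I/R, gave 4 not resolved, 33 lost, 160 with the other strand, and differences of 2.71 and 2.20. Requiring detection on both arrays left 0 not resolved, and requiring the expressed strand to be at least 2-fold brighter left 3 that changed over. With 1 common detection level, chosen after the data were seen, 55 were not resolved, 72 lost, 69 gained the other strand, 3 changed over, and the differences were 2.19 and 2.11. Without spots beside spots that moved alike, also chosen later, 27 gained the other strand.

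The normalization moved the counts of change. Cyclic loess gave 92 rises and 60 falls, against 69 and 93, normexp with an offset of 50 gave 27 rises and 25 falls with strand differences of 0.97 and 0.85, and 2-fold thresholds gave 28 rises and 22 falls. The offset shrinks folds of dim strands by construction; the cause of the change under loess was not tested. Of 68 folds of 17 named strands under 4 settings, 59 stayed within the measurement interval, 9 moved, all under normexp, and 0 changed direction. The log2 fold of MM9LINCRNAEXON11558- was then 2.85, and MM9LINCRNAEXON10866+ at -0.44 no longer counted as fallen. A strand that was not detected on 1 array was called by its bound. Detected strands just over the limits of 12.7 and 17.3 kept their folds. MM9LINCRNAEXON10710+, for example, counted as a rise with a fold of 1.53 (measurement interval 0.844 to 2.79).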
